A study of Mus musculus with 6 samples.

Results

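Imprinted genes were compared between cells labelled female germline stem cells (FGSC) and cells labelled spermatogonial stem cells (SSC) of CD1 mice. The 42 genes were a named list of imprinted mouse genes, taken by symbol from the array's annotation without a cut on any measured value. The list was chosen with earlier results of these data known. Its genes were grouped by chromosome domain and by the parental allele known to be expressed. Of the 42, 40 had at least 1 probe of their symbol among 19053 named genes, and 30 were among the 10628 genes tested. FGSC came from ovaries of mice aged 3 days and SSC from testes of mice aged 6 days, with 3 arrays in each group. Total RNA was amplified, labelled with biotin and hybridised to Illumina Mouse WG-6 v2.0 bead arrays. Effects of the organ, the sex and the age cannot be told apart in this design. The sources used here do not give how the cells were enriched or cultured. The labels do not say whether the 3 arrays of a group came from separate animals or isolations, so the p-values rest on a spread between samples that may be purely technical.

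An imprinted gene is transcribed mainly from the allele of a single parent, because DNA methylation laid down in the oocyte or in the male germ line marks a control region that governs a whole cluster of neighbours. Germ cells of both sexes erase these marks in the embryo. The male germ line rewrites its own before birth, and oocytes rewrite theirs as they grow after birth. In several clusters a long non-coding RNA or an insulator silences the neighbours on the same chromosome. Many imprinted genes act in the placenta, in fetal growth and in the brain. The arrays did not separate the parental alleles, so every value below is a total RNA level, and the allele named beside a gene is background.

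The upstream bases of 5 members named below are printed as background, and no difference between the groups was computed from these bases. Th, Kcnq1ot1 and Phlda2 belong to a single domain and had 3 of its 4 largest differences, Mest carries its control region at its own promoter, and Peg3 shares its promoter region with Usp29. Each run is the 250 bases before the transcription start in RefSeq (GRCm38.p6), read 5′ to 3′ on the gene's strand, with CpG dinucleotides, the sites of imprint methylation, in capitals. The Th run lies at chr7:142899996-142900245 on the minus strand, the Kcnq1ot1 run at chr7:143296548-143296797 on the minus strand and the Phlda2 run at chr7:143502525-143502774 on the minus strand. The Mest run is the promoter numbered 2 of 3 in the table, at chr6:30737800-30738049 on the plus strand, and the Peg3 run lies at chr7:6730420-6730669 on the minus strand.
Th: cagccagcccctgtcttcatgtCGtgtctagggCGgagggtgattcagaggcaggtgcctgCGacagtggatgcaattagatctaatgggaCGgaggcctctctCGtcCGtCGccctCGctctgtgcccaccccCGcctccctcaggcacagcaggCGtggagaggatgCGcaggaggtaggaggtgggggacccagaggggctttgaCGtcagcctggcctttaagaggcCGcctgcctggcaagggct
Kcnq1ot1: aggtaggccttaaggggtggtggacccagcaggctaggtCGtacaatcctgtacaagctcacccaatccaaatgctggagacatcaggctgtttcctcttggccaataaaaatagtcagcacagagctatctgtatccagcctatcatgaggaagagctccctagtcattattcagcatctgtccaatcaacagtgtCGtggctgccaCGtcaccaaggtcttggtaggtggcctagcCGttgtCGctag
Phlda2: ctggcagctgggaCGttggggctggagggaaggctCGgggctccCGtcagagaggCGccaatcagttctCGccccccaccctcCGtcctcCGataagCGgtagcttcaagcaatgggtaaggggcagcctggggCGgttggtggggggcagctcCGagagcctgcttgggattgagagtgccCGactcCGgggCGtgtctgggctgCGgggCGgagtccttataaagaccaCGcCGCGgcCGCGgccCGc
Mest: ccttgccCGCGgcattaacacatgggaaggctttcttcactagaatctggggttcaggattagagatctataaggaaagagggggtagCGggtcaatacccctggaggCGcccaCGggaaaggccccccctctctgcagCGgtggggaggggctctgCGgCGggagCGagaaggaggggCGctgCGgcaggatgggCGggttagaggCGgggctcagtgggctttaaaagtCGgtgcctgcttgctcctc
Peg3: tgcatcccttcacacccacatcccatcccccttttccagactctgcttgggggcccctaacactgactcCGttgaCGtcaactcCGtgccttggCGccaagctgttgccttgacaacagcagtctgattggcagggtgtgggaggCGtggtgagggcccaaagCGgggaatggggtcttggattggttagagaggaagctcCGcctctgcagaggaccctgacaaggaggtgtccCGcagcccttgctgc

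These runs held 13 CpG for Th, 5 for Kcnq1ot1, 21 for Phlda2, 14 for Mest and 8 for Peg3. The Usp29 window, at chr7:6730333-6730582 on the plus strand, overlaps that of Peg3, so these paternally expressed genes start head to head. Promoters of 35 members were matched in the table, 53 windows in all, with a median of 12 CpG, against 6 over all 32841 windows. The hexamer TGCCGC, which the imprint-protecting factor Zfp57 reads when its CpG is methylated, or its reverse GCGGCA, was counted. It occurred in 9 of the members' windows (17.0%) and in 8.7% of all windows. The hexamer holds a CpG itself, and the shares were not matched for the CpG counts above. The Mest run shown holds it 2 times, and the Th, Kcnq1ot1, Phlda2 and Peg3 runs hold none. Some windows of a gene with several starts overlap, such as those numbered 2 and 3 of Mest, and are not independent.

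The probe signals were corrected for background, normalized by quantiles and log2-transformed, and a level below is this normalized log2 signal. A level can be set against the same probe on another array, but not against another probe. A probe counts as detected at a detection p under 0.05 against the negative controls of its array. A probe was kept if 3 or more of the 6 arrays detected it, and the brightest kept probe of a gene stood for it. Differences are FGSC minus SSC with the standard error (SE) of the limma fit, and a gene was called at a Benjamini-Hochberg adjusted p under 0.05 over all 10628 genes.

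The arrays themselves differed before any gene was compared. Between 16198 and 17231 probes were detected on FGSC arrays, against 18574 to 18823 on SSC arrays. FGSC3 had the fewest. On it 150 genes departed by 2 log2 units or more from the mean of the other FGSC arrays, 147 of them downward, and Cd81 was the 1 member among them. Of 14 tested oocyte markers all 14 were higher in FGSC, with summed linear levels of 46770 to 50130 on FGSC arrays, against 2975 to 3444 on SSC arrays. The spermatogonial markers were 2 higher, 9 lower and 2 not called of 13. Their summed levels were nevertheless higher in FGSC (6303 to 8940) than in SSC (5573 to 6267). Such a sum rests on the brightest probes. In FGSC most of it was Uchl1, at levels of 12.23, 12.24 and 12.83, against 10.64, 10.59 and 10.55 in SSC. The sums therefore do not give the direction of most of these markers. The 2 called higher were Uchl1, by 1.84, and Pou5f1, by 0.85. The Pou5f1 probe had a signal out of order with its detection p on at least 1 array. Among those called lower, Zbtb16, which encodes a repressor of undifferentiated spermatogonia, had 5.22, 5.19 and 5.31 in FGSC, against 8.36, 8.20 and 8.13 in SSC. Lhx1 and Egr4, also lower, were undetected on all 3 FGSC arrays. Somatic markers also moved with the groups. Peritubular and smooth muscle markers were 0 higher and 6 lower of 7 (sums of 367.4 to 396.1 in FGSC and 3119 to 3356 in SSC). Fibroblast and stromal markers were 1 higher and 6 lower of 11 (985.3 to 1013 in FGSC and 4191 to 4813 in SSC), with Lum undetected in FGSC. Leydig and theca markers were 0 higher and 4 lower of 5 (131.3 to 136.3 in FGSC and 478.9 to 577.6 in SSC), and all 5 were undetected on every FGSC array. Genes listed as granulosa markers were 1 higher and 7 lower of 9 (372.3 to 465.8 in FGSC and 1108 to 1221 in SSC). The largest falls among them were those of Amh (-3.81) and Fshr (-2.23). That list is named for an ovarian cell type and SSC came from testes, so its counts do not measure granulosa cells. Sertoli markers were 4 higher and 3 lower of 8, endothelial markers 0 higher and 3 lower of 7, and macrophage and blood markers 0 higher and 1 lower of 5. Such out-of-order signals were found for 2 of the tested oocyte markers, 3 spermatogonial, 1 granulosa and 4 Sertoli markers. Fewer cells of a type and less RNA per cell cannot be told apart in such samples, and the part of other cell types in the differences of the imprinted genes was not tested.

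Most imprinted genes on the list that could be tested differed between the cells, and more of them were lower than higher in FGSC. Of the 30 tested, 6 rose (Th, Impact, Ndn, Ascl2, Cobl and Nap1l4), 17 fell and 7 were not called. Over all genes 62.4% were called, with 30.9% higher and 31.5% lower, so that 23 called of 30 (76.7%) stands above that background by few genes. The median difference of the 30 members was -0.30, against -0.003 over all genes tested. With only probes detected at p under 0.01 on all 6 arrays, 17 members were tested, 5 were higher and 6 lower, and their median was 0.15, against 0.10 over all genes tested there. Of those 6896 genes 2465 were higher and 1931 lower. In 25 members the levels of the groups did not overlap, a pattern seen in 71.0% of all genes. Differences of at least 1 log2 unit were found in 11 called members, 9 of them lower and 2 higher, while 14.1% of all genes tested were called and lower by that much and 12.7% called and higher. With the arrays scaled to a common median instead, 2 members were higher and 13 lower, and the median of all genes moved to -0.12. That scaling made 39.1% of all called genes higher, against 49.6% by quantile normalization.

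The way the probes were kept bears on the direction. The probe of 5 tested members (Mest, Osbpl5, Ddc, Meg3 and Nnat) was undetected on all 3 FGSC arrays and that of 1 (Th) on all 3 SSC arrays. Copg2, Atp10a and Dcn, all called lower, were detected on all 3 SSC arrays and 1 FGSC array, so the SSC arrays alone were enough to keep them. Kcnq1, not called, was detected on all 3 FGSC arrays and 1 SSC array. A gene kept only through the group where it was bright could differ in no other direction, and 7.69% of all tested genes were undetected on every FGSC array, against 3.33% on every SSC array. Of the 19 members detected on all 6 arrays, 5 rose, 9 fell and 5 were not called, with a median difference of -0.10. The 7798 genes detected on all 6 arrays had a median of 0.07, and 63.7% of them were called, 34.5% higher and 29.3% lower.

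**Figure D1:**
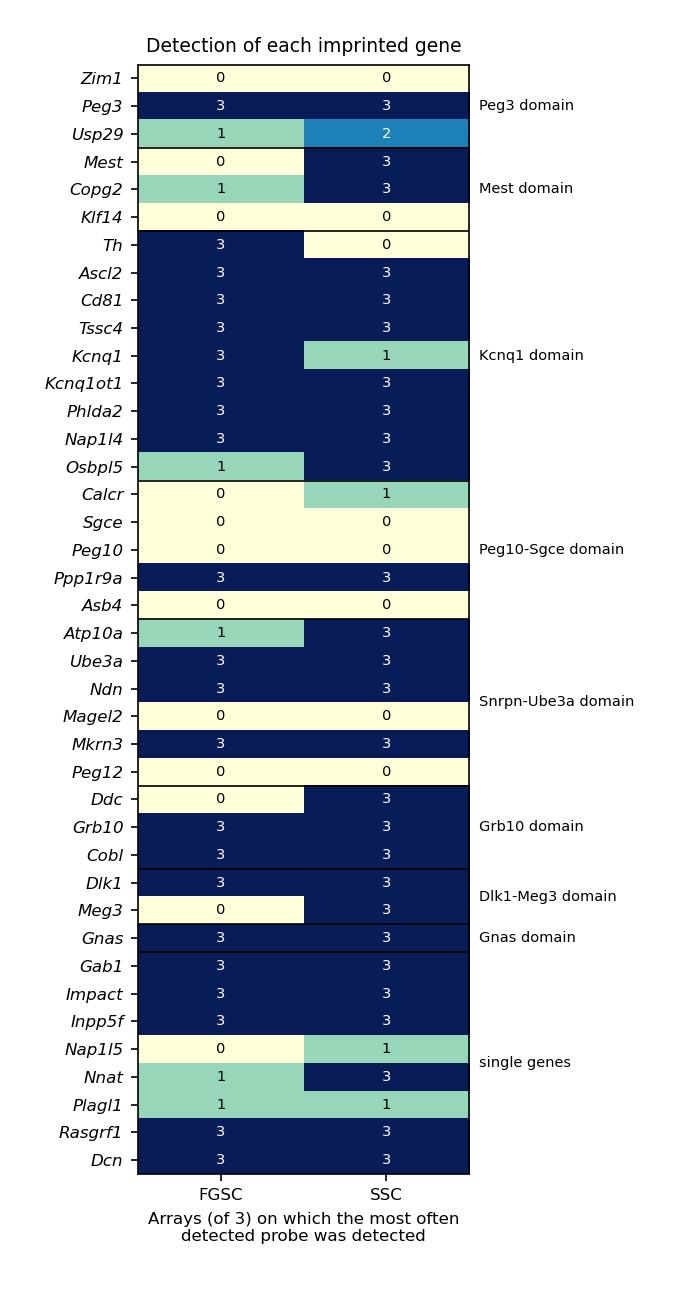
Rows are the 40 imprinted genes with a probe of their symbol, by domain, and columns are FGSC and SSC. The number and shade give on how many of 3 arrays the most often detected probe of the gene was detected, so Th stands at 3 in FGSC and 0 in SSC, and Mest at 0 in FGSC and 3 in SSC.

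Both the paternally and the maternally expressed members had more falls than rises. Of 21 paternally expressed members 13 were tested, and 2 rose, 7 fell and 4 were not called, with a median of -0.25. Over all genes 30.9% rose and 31.5% fell. Of 20 maternally expressed members 16 were tested, and 4 rose, 9 fell and 3 were not called, with a median of -0.30. Gnas, which makes transcripts from either allele, fell. With a detection p under 0.01 on all 6 arrays, paternally expressed members were 2 higher and 2 lower of 7 tested. Maternally expressed members were 3 higher and 3 lower of 9. Of all 6896 genes tested there 63.7% were called, 2465 higher and 1931 lower. The difference between the alleles was not tested.

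**Figure D2:**
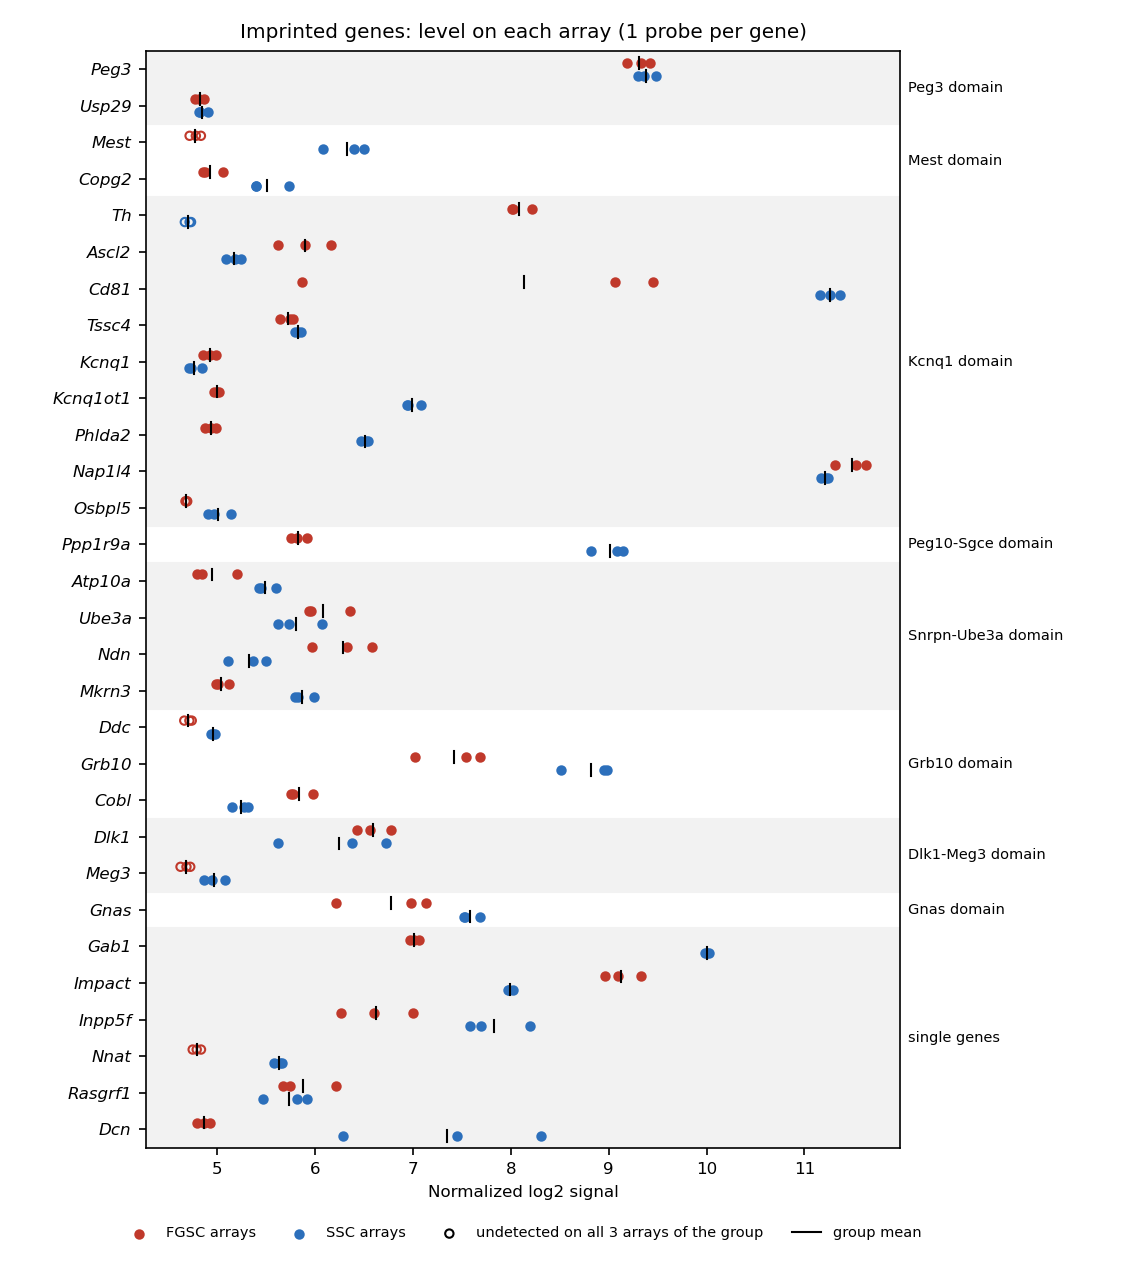
Each row is an imprinted gene, ordered by domain, and the horizontal axis is its normalized log2 signal. Red points are the 3 FGSC arrays, set above the blue points of the 3 SSC arrays, open points mark a probe undetected on all arrays of its group, and bars are group means, so points compare within a row only. Th lies near 8 in FGSC and below 5 in SSC, Gab1 near 7 in FGSC and 10 in SSC, and Peg3 overlaps.

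The Kcnq1 domain on chromosome 7 held the widest range of differences among the domains, 3.38 to -3.13. Its control region lies in an intron of Kcnq1, is methylated in oocytes and, on the unmethylated paternal copy, starts the long non-coding RNA Kcnq1ot1, which silences the neighbouring maternally expressed genes. All 9 members were tested. In chromosome order they were Th (higher), Ascl2 (higher), Cd81 (lower), Tssc4 (not called), Kcnq1 (not called), Kcnq1ot1 (lower), Phlda2 (lower), Nap1l4 (higher) and Osbpl5 (lower).

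Th encodes tyrosine hydroxylase, the first enzyme of catecholamine synthesis, and is maternally expressed in the placenta. Its level was 8.02, 8.22 and 8.01 in FGSC, against 4.74, 4.67 and 4.72 in SSC. It was detected on every FGSC array and on no SSC array, and was about 10.1-fold higher in FGSC (fitted difference 3.38 ± 0.09 SE, adjusted p = 8.44e-07).

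Kcnq1ot1, the silencing RNA of the domain, went the other way. Its kept probe had 5.0, 4.97 and 5.02 in FGSC, against 6.95, 7.09 and 6.94 in SSC. The groups lay far apart and within each group the arrays differed by less than 0.2 log2 units (difference -2.00 ± 0.08, adjusted p = 3.0e-06). That probe is tied to no transcript accession in the annotation, and the probe tied to the RefSeq transcript of Kcnq1ot1 was undetected on all 6 arrays. The RNA is unspliced and very long, so the probes can read different stretches of it.

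The maternally expressed genes of the domain did not move as 1 group. Phlda2, which encodes a pleckstrin homology protein that restrains placental growth, had 4.88, 4.99 and 4.93 in FGSC, against 6.52, 6.54 and 6.47 in SSC, a difference of -1.58 ± 0.07 (adjusted p = 6.12e-06). Ascl2, a basic helix-loop-helix factor of the trophoblast, had 5.62, 5.90 and 6.16 in FGSC, against 5.24, 5.09 and 5.18 in SSC, a difference of 0.72 ± 0.14 (adjusted p = 0.00436). The other kept probe of Ascl2 was also called higher, by 0.46 ± 0.17. Median scaling gave Ascl2 0.40 and ended the call.

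Cd81, which encodes a tetraspanin of the cell surface and of exosomes, had 9.46, 9.07 and 5.87 in FGSC, against 11.26, 11.16 and 11.36 in SSC. All FGSC arrays were below all SSC arrays, and FGSC3 was over 3 log2 units below the other FGSC arrays. The difference was -3.13 ± 0.89 (adjusted p = 0.0208) with all arrays and -2.00 without FGSC3 (adjusted p = 3.77e-05). Without any 1 of the SSC arrays the call was lost, at adjusted p-values of 0.0564 to 0.0594, as it was with median scaling (0.0594) and with no detection filter (0.0521).

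Nap1l4, a histone chaperone gene of the NAP1 family, was at 11.53, 11.63 and 11.31 in FGSC and at 11.22, 11.24 and 11.17 in SSC. The lowest FGSC array stood just above the highest SSC array, and the difference of 0.28 ± 0.10 (adjusted p = 0.0483) was lost in 9 of 17 other settings. Leaving out any array but FGSC3 ended it, with adjusted p-values of 0.0965 to 0.143.

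Osbpl5, an oxysterol-binding protein family gene, was about 1.14-fold lower in FGSC, where its probe was undetected. Its levels were 4.70, 4.68 and 4.69 in FGSC, against 4.91, 4.97 and 5.14 in SSC (-0.32 ± 0.09, adjusted p = 0.0168). Without FGSC2 the adjusted p was 0.0521. The other Osbpl5 probe was detected on 1 FGSC array only. Kcnq1, the potassium channel gene that gives the domain its name, differed by 0.16 ± 0.08 (adjusted p = 0.118), and Tssc4, a gene of snRNP assembly, by -0.10 ± 0.08 (adjusted p = 0.265). Neither was called, although the levels of the groups did not overlap for either gene.

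**Figure D3:**
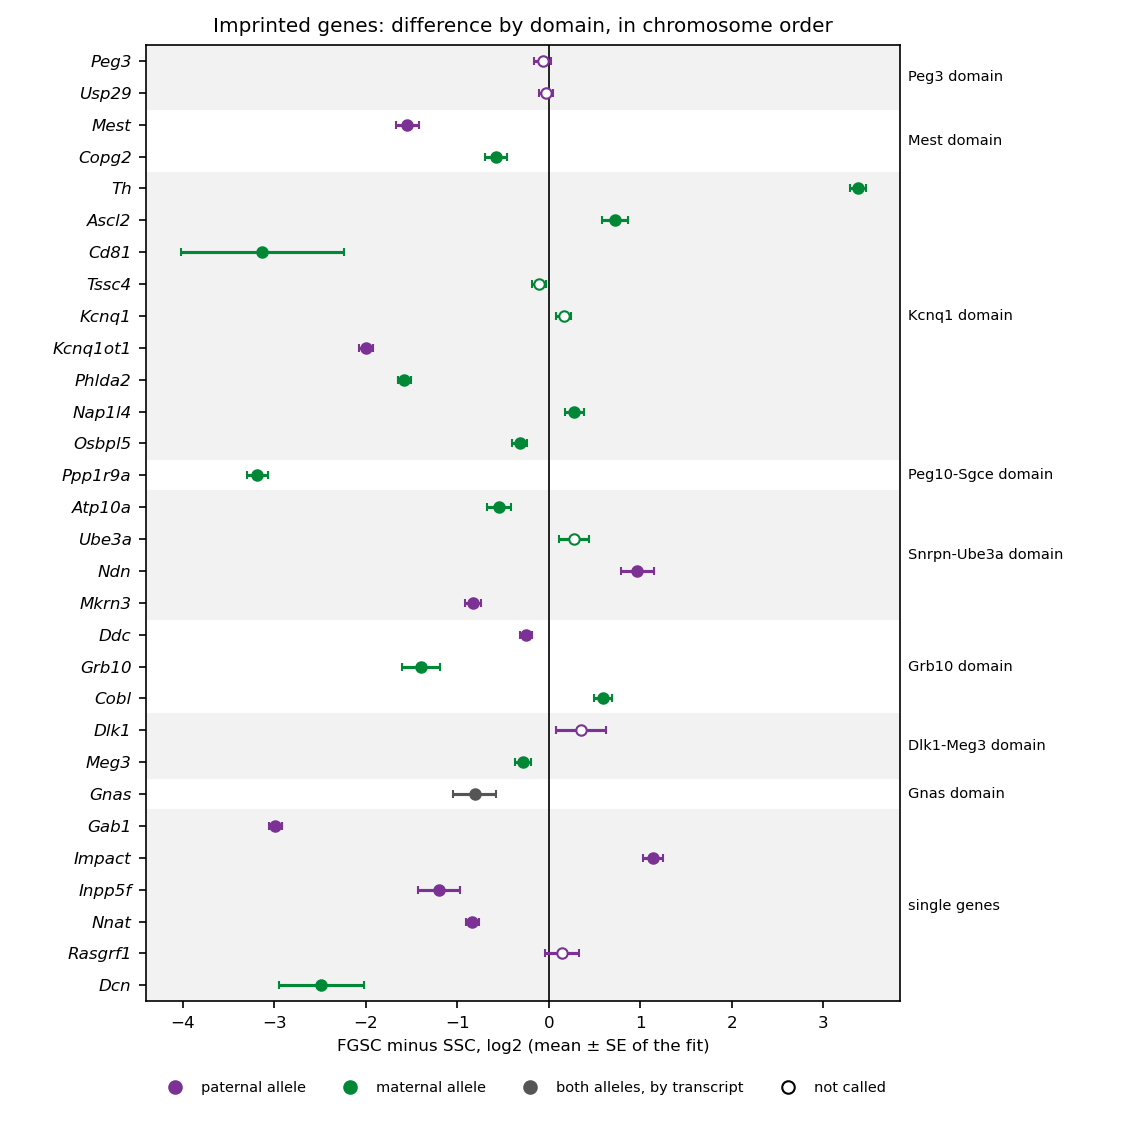
Differences (FGSC minus SSC, log2, horizontal axis) of the 30 tested members with the SE of the fit as bars, in chromosome order within each domain. Purple marks paternally and green maternally expressed genes, grey marks Gnas, and open points were not called. The Kcnq1 domain spans 3.38 for Th to -3.13 for Cd81.

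The Peg3 domain did not differ at the probes that could be tested. Peg3, a paternally expressed zinc finger gene, had 9.18, 9.33 and 9.42 in FGSC, against 9.30, 9.36 and 9.48 in SSC. The groups overlapped, with a difference of -0.07 ± 0.10 (adjusted p = 0.554), and the other kept probe gave 0.12 ± 0.16. Usp29, a deubiquitinase gene read from the shared promoter region on the other strand, was near the limit of detection, on 1 FGSC array and 2 SSC arrays, and differed by -0.03 ± 0.07 (adjusted p = 0.746). Zim1, a maternally expressed zinc finger gene, was undetected on all 6 arrays.

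Both tested genes of the Mest domain fell. Each was detected on all 3 SSC arrays, Mest on no FGSC array and Copg2 on 1. The SSC arrays alone were thus enough to keep them, and their shared direction is no test of the domain. Mest encodes an enzyme of the alpha/beta hydrolase fold that is abundant in embryonic mesoderm, and it is expressed from the paternal allele. Its brightest probe had 4.84, 4.72 and 4.78 in FGSC, against 6.51, 6.08 and 6.40 in SSC. None of the 3 Mest probes was detected on any FGSC array and all were detected on every SSC array. Mest was about 2.83-fold lower in FGSC (-1.55 ± 0.12, adjusted p = 6.25e-05). Its other probes gave -0.76 ± 0.08, called, and -0.63 ± 0.24, not called. Copg2, a COPI vesicle coat subunit gene that overlaps the end of Mest and is maternally expressed, had 5.07, 4.86 and 4.87 in FGSC, against 5.40, 5.40 and 5.74 in SSC (-0.58 ± 0.12, adjusted p = 0.00611). Klf14, an intronless Krüppel-like factor gene, was undetected on all 6 arrays.

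In the domain of Peg10 and Sgce, 1 of 5 members could be tested. Ppp1r9a, which encodes the actin-binding scaffold neurabin, had 5.92, 5.81 and 5.76 in FGSC, against 9.15, 9.08 and 8.82 in SSC. The difference of -3.18 ± 0.11 (adjusted p = 1.93e-06) was the lowest of the 30 members. The other Ppp1r9a probe also fell, by 0.87 on the log2 scale. Peg10, a retrotransposon-derived gene needed for the placenta, Sgce, which encodes epsilon-sarcoglycan, and Asb4, an ankyrin repeat and SOCS box gene, were undetected on all 6 arrays. Calcr, the calcitonin receptor gene, was detected on 1 array.

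The Snrpn-Ube3a domain gave calls of both directions in its paternally expressed genes. Ndn encodes necdin, a MAGE family protein of neurons, and had 6.58, 6.33 and 5.97 in FGSC, against 5.37, 5.11 and 5.50 in SSC, a difference of 0.97 ± 0.18 (adjusted p = 0.00326). Median scaling gave 0.69 and ended the call. The 3 SSC signals of this probe were deposited with 8 or more significant digits, a form found in 1.18% of signals of at least 100. Mkrn3, a makorin RING finger gene that holds back puberty in humans, had 5.12, 5.01 and 4.99 in FGSC, against 5.83, 5.99 and 5.80 in SSC, and fell by 0.83 on the log2 scale (SE 0.09, adjusted p = 0.000234). Magel2 and Peg12 were undetected on all 6 arrays, and no probe carried the symbol Snrpn.

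The maternally expressed side of that domain held Atp10a and Ube3a. Atp10a, a phospholipid flippase gene, had 4.80, 5.20 and 4.84 in FGSC, against 5.60, 5.45 and 5.43 in SSC (-0.54 ± 0.13, adjusted p = 0.00937). Ube3a, an E3 ubiquitin ligase gene imprinted in neurons, overlapped between the groups and differed by 0.27 ± 0.16 (adjusted p = 0.183). Only 1 of its 7 probes was kept.

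All 3 members of the Grb10 domain were called. Grb10 encodes an adaptor that restrains insulin and IGF receptor signalling, and is maternally expressed outside the brain. It had 7.54, 7.69 and 7.02 in FGSC, against 8.99, 8.95 and 8.52 in SSC, a difference of -1.40 ± 0.21 (adjusted p = 0.0012). The other kept probe of Grb10 was near the limit of detection and gave -0.23 ± 0.09, not called. Cobl, an actin nucleator gene, had 5.78, 5.98 and 5.75 in FGSC, against 5.15, 5.27 and 5.32 in SSC, and rose by 0.59 ± 0.10 (adjusted p = 0.00174), a call lost with median scaling at 0.31. Ddc encodes DOPA decarboxylase, the enzyme that follows tyrosine hydroxylase in dopamine synthesis. It was undetected in FGSC and about 1.10-fold lower there (-0.25 ± 0.07, adjusted p = 0.0192). Its SSC levels of 4.96, 4.94 and 4.98 were themselves near the limit of detection, and the call was lost without SSC1 or SSC2, at adjusted p-values of 0.0606 and 0.0525, and with median scaling (0.0509).

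In the Dlk1-Meg3 domain, Dlk1, which encodes a paternally expressed transmembrane protein related to Notch ligands, was read by probes that disagreed in call. The brightest had 6.43, 6.57 and 6.78 in FGSC, against 6.73, 6.38 and 5.62 in SSC, and the groups overlapped (0.35 ± 0.28, adjusted p = 0.304). The other had 7.21, 6.72 and 6.29 in FGSC, against 6.29, 5.15 and 5.71 in SSC, and was called higher by 1.02 ± 0.34 in the fit over probes. Signals of 8 or more digits were found for the brightest probe on all 3 FGSC arrays, and without such probes Dlk1 was called at 1.02. Meg3, a maternally expressed long non-coding RNA, had 4.73, 4.63 and 4.69 in FGSC, where it was undetected, against 4.94, 5.08 and 4.87 in SSC. It was about 1.11-fold lower in FGSC (-0.29 ± 0.09, adjusted p = 0.0255). The other 2 probes of the same Meg3 transcript were undetected on all 6 arrays. The Meg3 call was lost without FGSC2, SSC1 or SSC2, at adjusted p-values of 0.0639 to 0.0862, with median scaling (0.0539) and with an offset of 50 (0.0526).

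Gnas is a complex locus in which several promoters feed shared exons. Its products include the stimulatory G protein alpha subunit, made from both alleles in most tissues, a paternally expressed extra-large form and a maternally expressed secretory protein. Of 10 probes 5 were kept, and they did not move together. The brightest had 7.13, 6.98 and 6.22 in FGSC, against 7.54, 7.53 and 7.69 in SSC, a difference of -0.81 ± 0.24 (adjusted p = 0.0221). FGSC3 was the lowest, the difference was -0.53 without it, and the call was lost without any 1 of the SSC arrays (adjusted p = 0.0555 to 0.0684) and with median scaling (adjusted p = 0.107). Of the other kept probes, 1 fell by 1.15 on the log2 scale, 1 was called higher by 0.72 and 2 were not called (-0.01 and 0.12). The probe called higher had SSC1 and SSC2 signals of 102.1 and 107.0 that were too low for their detection p of 0, as only 10 of 13990 probes at that p were so low on SSC1 and 57 of 13241 on SSC2. The mean of all kept Gnas probes differed by -0.23 and was not called.

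Of the imprinted genes outside these domains, Gab1 had the smallest spread beside its difference. Gab1 encodes an adaptor of receptor tyrosine kinases, and its imprinting, from the paternal allele, is known in the placenta. Its level was 6.97, 7.06 and 7.01 in FGSC, against 9.98, 10.03 and 10.00 in SSC, which gave -2.99 ± 0.07 (adjusted p = 6.71e-07). The arrays of each group lay within 0.1 log2 units of each other. Inpp5f, an inositol phosphatase gene of which a brain variant is imprinted, had 7.0, 6.61 and 6.27 in FGSC, against 7.59, 7.70 and 8.20 in SSC (-1.20 ± 0.23, adjusted p = 0.00394). Nnat encodes neuronatin, a small membrane protein of the endoplasmic reticulum, and its brightest probe had 4.75, 4.79 and 4.84 in FGSC, where it was undetected, against 5.58, 5.66 and 5.64 in SSC. It was about 1.74-fold lower in FGSC (-0.84 ± 0.07, adjusted p = 9.13e-05). Its other kept probe, detected on 1 FGSC array, also fell, by 0.22 on the log2 scale.

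Impact, a regulator of translation through the kinase Gcn2, had 9.10, 9.33 and 8.97 in FGSC, against 8.02, 7.98 and 7.97 in SSC. It rose by 1.14 ± 0.11 (adjusted p = 0.000135), the largest rise of a member detected on all 6 arrays. Its other kept probe had 5.31, 5.24 and 5.29 in FGSC, against 5.73, 5.86 and 5.69 in SSC, and was called lower, by -0.48 ± 0.08. Both probes are tied to the same transcript accession. Rasgrf1, a Ras exchange factor gene, overlapped between the groups and gave 0.15 ± 0.18 (adjusted p = 0.513). Plagl1, a zinc finger factor gene, was detected on at most 2 arrays and Nap1l5 on 1, so neither was tested, and no probe carried the symbol Zrsr1.

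Dcn encodes decorin, a proteoglycan of connective tissue that is imprinted in the placenta. Its brightest probe had 4.87, 4.93 and 4.80 in FGSC, against 6.29, 7.45 and 8.31 in SSC, a difference of -2.49 ± 0.47 (adjusted p = 0.00342). The SSC arrays spread over 2 log2 units while the probe was detected on 1 FGSC array, FGSC1, at a detection p of 0.0449. On FGSC2 the signal of this probe was out of order with its detection p. The other kept probe had 6.67, 6.39 and 6.30 in FGSC, against 5.94, 5.59 and 5.45 in SSC, and was called higher by 0.79 ± 0.16, but its SSC signals had 8 or more digits. A direction for Dcn therefore depends on the probe. A probe not kept, detected on 2 SSC arrays and 0 FGSC arrays, had 4.70, 4.64 and 4.66 in FGSC, against 4.91, 4.79 and 4.91 in SSC. The remaining Dcn probe was undetected on all 6 arrays. The summed fibroblast and stromal markers given above were lower in FGSC, as was the brightest Dcn probe. Most of that sum in SSC was Sparc, at 11.78, 11.63 and 11.39 on SSC1 to SSC3, where the brightest Dcn probe rose. Other genes of the list went either way there, such as Pdgfra (7.05, 8.09 and 8.24) and Lum (6.41, 6.09 and 6.08). The part of these markers in the Dcn result was not tested.

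Several probes of a gene did not always give the same call. Of 46 kept probes of members, 10 were called higher and 22 lower, and 59.0% of all 18860 kept probes were called. Of 12 members with at least 2 kept probes, 3 (Dcn, Gnas and Impact) had probes called in opposite directions, or 25.0%, against 237 of 3850 genes (6.16%) in all. Without probes that had a signal out of order with its detection p or one of 8 or more digits, a count added after the data were seen, Impact alone remained of 10 such members, against 193 of 3680 genes (5.24%) in all. Both kept probes of Ascl2 were higher and all called probes of Mest, Nnat and Ppp1r9a were lower.

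**Figure D4:**
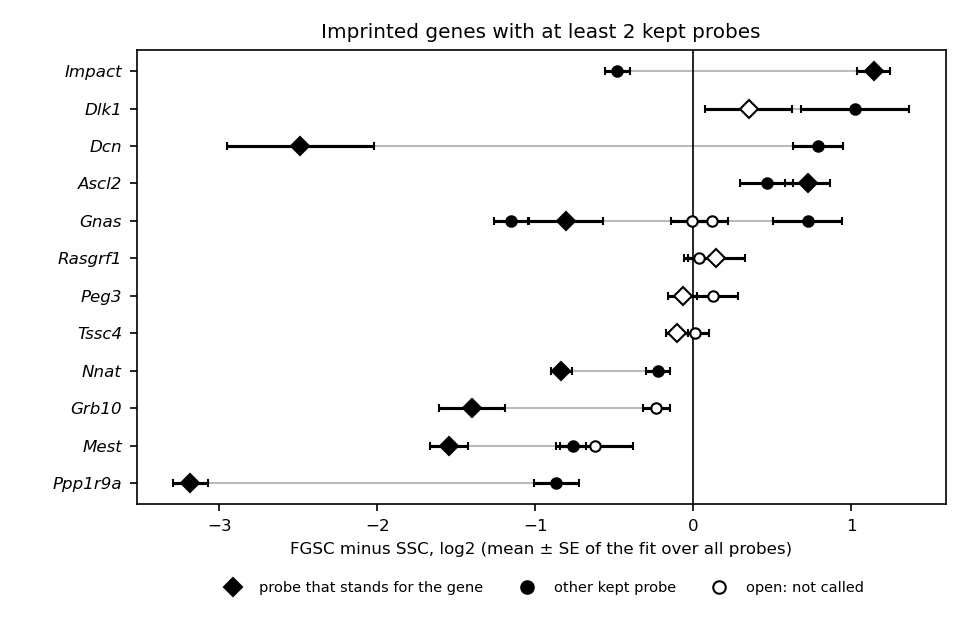
Differences (FGSC minus SSC, log2, horizontal axis) of every kept probe of the 12 members that have at least 2, with the SE of the fit over all probes as bars. Diamonds are the probes that stand for their genes, circles are the other kept probes, and open symbols were not called. Dcn, Gnas and Impact have filled symbols on either side of 0.

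Imprinted genes outside the list moved in either direction in about equal numbers. So did all genes tested, of which 62.4% were called, 30.9% higher and 31.5% lower. Of 13 tested genes listed as paternally expressed 6 rose, 6 fell and 1 was not called, with a median of 0.37. Igf2, the fetal growth factor gene, had 6.84, 6.78 and 7.17 in FGSC, against 11.53, 11.61 and 11.61 in SSC, which was the largest fall (-4.65 ± 0.12), followed by Adam23 (-1.69 ± 0.09). The largest rises were those of Blcap (1.21 ± 0.14), whose intron holds Nnat and whose brain transcripts are known to come mainly from the maternal allele, and of Snurf (1.13 ± 0.15), which shares its transcript with Snrpn. Blcap and Nnat thus differed in opposite directions.

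Of 10 tested genes listed as maternally expressed, 4 rose, 4 fell and 2 were not called, with a median of 0.24. The shares over all genes tested were 30.9% higher and 31.5% lower. The largest rises were those of Trappc9 (2.03 ± 0.18) and Commd1 (0.96 ± 0.19). The largest falls were those of Qpct, about 12.4-fold lower, and Rian, a long non-coding RNA of the Dlk1-Meg3 domain, about 4.65-fold lower. The probe that stands for Rian, like that of Meg3, was undetected on every FGSC array and detected on every SSC array.

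Factors that write, protect or remove imprints moved in both directions. Of 16 tested, 4 rose, 6 fell and 6 were not called, with a median of -0.05. Over all genes tested 62.4% were called, 30.9% higher and 31.5% lower, so the share of called factors was close to that background. Dppa3, a maternal factor that shields methylation in the zygote, had 13.19, 13.19 and 12.95 in FGSC, against 4.78, 4.98 and 4.99 in SSC (8.19 ± 0.11), the largest difference on the imprint lists, and is also on the oocyte marker list. Kdm1b, a histone demethylase needed for maternal imprints in oocytes, rose by 3.06 ± 0.10, and its groups did not overlap. The DNA methyltransferase gene Dnmt3b had 8.33, 8.24 and 7.66 in FGSC, against 10.43, 10.55 and 10.50 in SSC (-2.42 ± 0.18). Tet1, which encodes an enzyme that oxidises methylated cytosine, had 4.85, 4.88 and 5.15 in FGSC, against 7.44, 7.47 and 7.09 in SSC (-2.38 ± 0.14). Dnmt3l, the cofactor of DNA methyltransferases in the imprinting of oocytes, was also called lower (-0.41 ± 0.08), and was chosen for mention after its value was seen.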

How the data were processed

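Each of 3 FGSC and 3 SSC samples of total RNA was hybridised to 1 Illumina bead array. The authors deposited a table of signal intensity and detection p-value for 45281 probes on each array, not normalized per the file headers, and a table of processed intensity values whose scale and centring are not stated (median 19.9 in each column, rank correlation 1 with the signals). Lumi is the tool listed in the submitters' processing notes, and its version and role are not stated there. No aligner or build applies to these values.

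Groups and replicate numbers came from the sample titles. The neqc function of limma 3.58.1 (R 4.3.3) estimated the background from the detection p-values, removed it by a normal-exponential fit, added an offset of 16, normalized the arrays by quantiles and took log2. The filter kept 18860 probes, those that 3 or more of 6 arrays detected at p under 0.05. A single gene symbol was given for 34885 probes, several for 18 and none for 10378, and only the first were used. Symbols were updated by gene ID (34807 probes) or transcript (11). Fits of both groups with lmFit and eBayes had no covariate and 4 residual degrees of freedom, and p-values were adjusted over all genes, or over all kept probes in the fit of single probes. An exact permutation test on 3 arrays against 3 could not pass 0.05 and was not run. The fit was tested on simulated data. The number of arrays limits the precision. A fold written as about N is the bright group's mean over the dim group's mean. In it, each undetected array was set to the higher of its lowest detected signal and the probe's own. On SSC1 that lowest signal, at a level of 4.7175, lay below an undetected Peg3 probe at 4.722, so these folds are not lower bounds.

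The members, the gene lists and the tests were chosen with earlier results of these data known. Every member is named, and each imprint list is shown by its 2 largest called rises and its 2 largest called falls. A signal was held to be irregular when it was out of order with its detection p (321 probes). Alternatives were median scaling, the processed table, no background correction, an offset of 50, a detection p under 0.01 on all 6 arrays, no detection filter, the mean of kept probes, irregular probes left out, a replicate block, array weights and each array left out in turn. Leaving out probes with signals of 8 or more digits was added after the data were seen.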

Additional observations from a re-analysis of the deposited data

How the results depend on the processing

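Of 23 called members, 13 kept their call and direction in each of the 17 other settings that tested them. Of the 7 members not called, 5 stayed so. The count of members lower was 17 and of members higher 6. Median scaling gave 13 lower and 2 higher. A detection p under 0.01 on all 6 arrays tested 17 members and gave 6 lower and 5 higher, and 4396 of 6896 genes called, against 6632 of 10628, fewer genes being tested. Dcn changed direction, at 0.63 in the authors' processed table, 0.79 with that filter and 0.79 without irregular probes, since another probe then stood for the gene or ranked brightest. Leaving out 1 array at a time gave 5 to 6 members higher, 13 to 17 lower and 5781 to 6993 genes called. Cd81, Nap1l4, Gnas, Ddc, Meg3 and Osbpl5 lost their calls in some of these, and Cd81, Gnas, Ddc, Meg3, Nap1l4, Ascl2, Ndn and Cobl with median scaling. Same-numbered samples did not deviate together (correlations -0.20, -0.05 and -0.22), so the numbers share no origin known here. The replicate block gave 5 members higher and 15 lower and 5928 genes called, without Nap1l4, Ddc and Meg3. Without a detection filter 40 members were tested, 5 higher and 16 lower. Without probes of 8 or more digits Ndn had no probe and the counts were 6 and 17. With no background correction, differences near the background were smaller, such as -0.73 for Mest, -0.96 for Kcnq1ot1 and -0.72 for Phlda2, and all 23 calls held. The cause was not tested for Cd81, Nap1l4, Gnas, Ddc, Meg3 and Osbpl5. Signal close to background limits Usp29, Osbpl5, Ddc, Meg3 and Kcnq1. In FGSC it also limits the size of the falls of Mest, Nnat, Copg2, Atp10a, Phlda2 and Kcnq1ot1.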

Other observations

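Snurf, which is transcribed together with Snrpn, stands outside the list because its probes carry another symbol, and its 4 probes disagreed. The brightest had 9.41, 9.07 and 9.09 in FGSC, against 7.97, 7.90 and 8.32 in SSC, a difference of 1.13 ± 0.15 (adjusted p = 0.00075 in the limma fit over probes). A probe of the same transcript accession had 6.19, 6.43 and 6.81 in FGSC, against 5.04, 5.12 and 5.14 in SSC, and was called higher by 1.38. The probe called in the other direction had 6.31, 6.33 and 6.42 in FGSC, against 7.26, 7.38 and 6.89 in SSC, and fell by 0.82 on the log2 scale. The remaining probe was undetected on all 6 arrays.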
